A study of Mus musculus with 6 samples.

Results

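Exon probe sets whose signal was lower in Celf1 knockdown neurons, relative to the rest of their own gene, numbered 146 in 133 genes. They come from 236922 probe sets in 14309 genes that could have met the rule, so 0.0616% did. A probe set is a small group of array probes that reads 1 stretch of 1 exon, and its level is a log2 RMA value. It could enter where it carried a single gene symbol, where it averaged 5.73 or more over all 6 arrays, which is the median of the 1195555 probe sets in the table, and where its gene had 5 or more such probe sets. Its index was its level minus the median of its gene's probe sets on the same array. The knockdown index minus the control index was taken within each pair of same-numbered arrays. A probe set was called relatively lost where this difference was -0.5 or lower in all 3 pairs and -1 or lower on average, which is a relative drop of 2-fold or more. Celf1 itself was left out. These differences chose the probe sets, so the values that follow describe them and are not tests of them.

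The study compared primary cortical neuron cultures of C57BL/6 embryos at embryonic day 15, 3 given a lentivirus with a control short hairpin RNA (shRNA) and 3 one whose shRNA targets Cugbp1, as Celf1 was formerly called. Both groups were freed of meninges, treated with AraC, which acts against dividing cells, infected on day 5 for 4 hours and harvested on day 11 after 6 further days, and 100 ng of RNA per array was labelled. The labels do not say whether arrays of a group came from separate cultures, so p-values measure the spread between these arrays, which may be technical. For replicates 2 and 3 of each group the treatment description gives Tdp-43 as the shRNA target, while their titles and genotype labels give control in 1 group and Cugbp1 in the other. The series' design text has motor neurons, but all sample labels have cortical neurons. Effects of the hairpin other than lowering Celf1 cannot be told apart from it.

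CELF1 is an RNA-binding protein that acts in the nucleus on the choice of alternative exons and in the cytoplasm on mRNA decay and translation. When an exon is skipped more often, a probe set in it reads less signal while probe sets in the constant exons of the gene do not. The same relative difference also appears when the gene's other exons gain signal and 1 probe set does not follow, so the level of the probe set and the median of its gene are given side by side.

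Celf1 fell in the knockdown cultures. The median of its 27 probe sets was 11.00, 10.86 and 10.72 in control replicates 1, 2 and 3 and 9.71, 9.76 and 9.51 in the knockdown replicates. The groups did not overlap. The difference was -1.20 on the log2 scale (standard error 0.13, limma, adjusted p = 0.0110), which left 43.4% of the control level. The call was lost without control replicate 2 (adjusted p = 0.0912), Cugbp1 shRNA replicate 2 (0.0850) or Cugbp1 shRNA replicate 3 (0.0610). Tardbp, which encodes TDP-43, differed by -0.17 (limma, adjusted p = 0.673) and did not pass.

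Array medians lay between 5.74 and 5.78, and arrays of 1 group correlated at 0.953 to 0.979 across probe sets. Of 12 neuron markers 11 were measured (not Rbfox3), with a median control level of 12.48 over genes. The medians were 9.21 for 6 of 6 astrocyte markers, 9.90 for 4 of 6 oligodendrocyte lineage markers, 6.83 for 2 of 6 microglia markers (not Cx3cr1, P2ry12, Tmem119 and C1qa), 7.13 for 5 of 6 endothelial and mural cell markers (not Cldn5), 7.68 for 5 of 6 fibroblast and meninges markers (not Lum) and 8.42 for 3 of 4 markers of dividing cells (not Ccnb1). The summed level of the endothelial and mural list was 9.60 to 9.86 in controls and 9.12 to 9.48 in knockdown arrays, and that of the neuron list 15.79 to 15.84 and 15.71 to 15.76. These 2 lists did not overlap between groups and the other 5 did. Their part in the relative losses was not tested. In bulk RNA, fewer cells of a type and less RNA per cell cannot be told apart.

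A moderated test, with 1 variance per probe set drawn toward that of all probe sets, called no single loss. Of 236949 probe sets (Celf1 included), limma on the index called 0 lower at an adjusted p under 0.05, which is 0.0%, and 0 higher. An unadjusted p under 0.05 was reached by 5407 in the lower direction, 2.28% of all, and by 5639 in the higher, 2.38%. With same-numbered arrays blocked, limma called 0 lower, 0.0%, with 12712 at an unadjusted p under 0.05, 5.36%. limma's diffSplice, which compares a probe set with the rest of its gene using 1 variance per gene, called 98 lower, 0.0414%, and 110 higher, 0.0464%. Of the 146 relatively lost probe sets, 41 were among the diffSplice calls, 123 had an unadjusted p under 0.05 in limma and 0 passed there after adjustment. The rule used the same contrast, so nothing is read from these counts.

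Nrcam held the probe set with the most negative mean. Nrcam encodes a neuronal cell adhesion molecule of the L1 family, which has immunoglobulin and fibronectin domains outside the cell, and its transcripts are known to be alternatively spliced in brain. Probe set 4999666 read 7.50, 8.63 and 6.85 in control replicates 1 to 3 and 4.82, 5.39 and 4.60 in knockdown replicates 1 to 3. All 3 knockdown arrays lay below every control array and below the level filter of 5.73. The median of the 52 compared Nrcam probe sets was 11.50, 11.87 and 11.78 in controls and 11.50, 11.74 and 11.70 in knockdown arrays, a difference of -0.068.

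The index difference of this Nrcam probe set was -2.66 ± 0.47 (SD, n = 3 pairs), with -2.69, -3.11 and -2.17 in pairs 1, 2 and 3. As computed, its signal relative to the gene in knockdown arrays was 15.9% of that in controls, but the knockdown arrays lay below the level filter and no detection call was used, so this share may be set by the background. The most negative of the other 51 Nrcam probe sets was at -0.43 and the most positive at 0.53. No other compared probe set of the gene came near the threshold of -1. The plot of all compared Nrcam probe sets on the 6 arrays shows all 52.

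**Figure D1:**
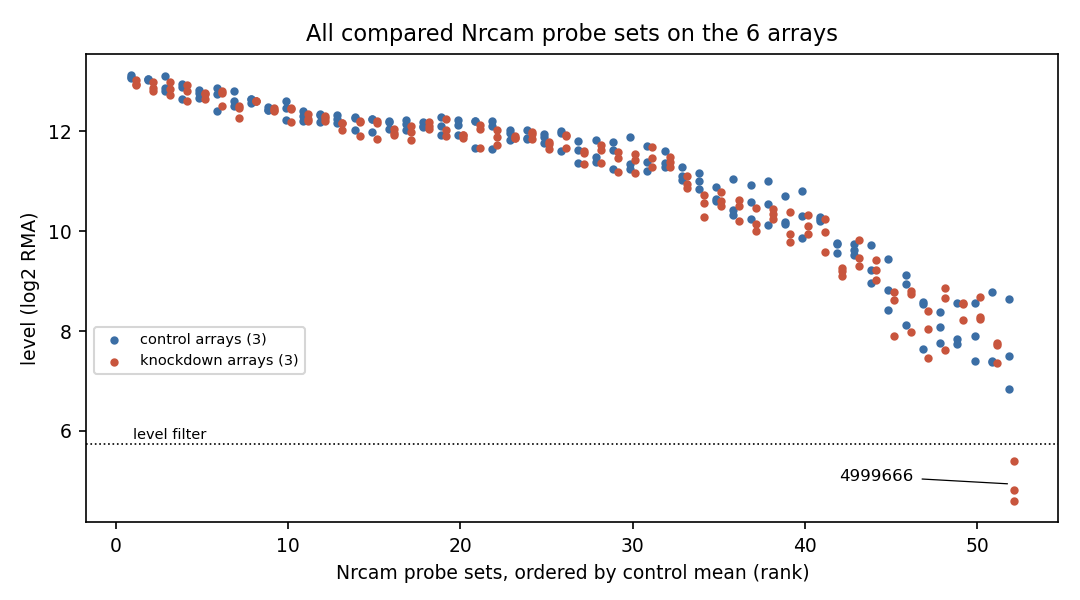
Level (log2 RMA) of each of the 52 compared Nrcam probe sets on the 3 control (blue) and 3 knockdown (red) arrays, with probe sets ordered by control mean and the level filter dotted. Probe set 4999666, at the right, is at 6.85 to 8.63 on control arrays and 4.60 to 5.39 on knockdown arrays, and the mean index differences of the other 51 lie between -0.43 and 0.53, with wider spread between arrays at low levels; signals of different probe sets also differ with probe affinity, so their order is no order of exon abundance.

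The other 14 of the 15 relatively lost probe sets with the most negative means ran from -2.41 to -1.51. Rab27b encodes a small GTPase of secretory vesicle docking. Its probe set 4799673 read 7.55, 7.73 and 6.95 in controls and 4.22, 3.0 and 4.99 in knockdown arrays. The groups lay far apart, but the gene median also differed, at 8.18, 8.04 and 7.98 in controls and 6.95, 7.22 and 7.24 in knockdown arrays. The index difference was -2.41 ± 1.37 (SD, n = 3 pairs), the largest SD among the 146, with pair 2 at -3.91 and pair 3 at -1.23.

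Arhgap12 encodes a GTPase activating protein. Its probe set 5562041 read 6.76, 7.68 and 6.72 in controls and 5.51, 4.47 and 4.38 in knockdown arrays, without overlap. The index difference was -1.88 ± 1.04 (SD, n = 3 pairs), beside a gene median difference of -0.39. Acvr2a encodes a type II receptor for activins. Probe set 5257544 of this gene read 7.32, 8.11 and 5.68 in controls and 5.98, 5.38 and 3.20 in knockdown arrays, so knockdown replicate 1 exceeded control replicate 3, and the groups overlapped in level although the index difference was -1.01 or lower in each pair.

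Nbr1 encodes a receptor of selective autophagy. Its probe set 4353334 read 7.12, 8.07 and 6.60 in controls and 6.24, 6.22 and 3.23 in knockdown arrays. Knockdown replicate 3 stood well below the other 5 arrays, and the pairs ran from -0.69 to -2.99. Rpl15 encodes a protein of the large ribosomal subunit. Probe set 4809792 read 6.93, 7.81 and 5.39 in controls and 5.11, 5.31 and 3.97 in knockdown arrays, where control replicate 3 and knockdown replicate 2 nearly met. Ribosomal protein genes have many processed pseudogenes that array probes may not separate, so this value is uncertain.

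Primpol encodes a primase and polymerase that restarts stalled DNA replication. Its probe set 5206751 read 7.50, 7.32 and 7.30 in controls and 4.86, 5.72 and 4.74 in knockdown arrays. The controls were tight, every knockdown array was lower, and the index difference was -1.79 ± 0.71 (SD, n = 3 pairs). Cyp11a1 encodes the side chain cleavage enzyme that begins steroid hormone synthesis. Probe set 5559112 read 7.07, 7.87 and 6.35 in controls and 4.41, 5.32 and 3.47 in knockdown arrays. The groups did not overlap, and the gene median differed too, by -1.0.

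Dpy19l1 encodes a multi-pass membrane protein of a family of C-mannosyltransferases. Its probe set 5062796 read 7.28, 7.13 and 6.57 in controls and 4.88, 5.66 and 3.94 in knockdown arrays, without overlap, at an index difference of -1.63 ± 0.62 (SD, n = 3 pairs). Cyhr1 probe set 5117466 read 7.57, 7.99 and 7.12 in controls and 5.48, 6.99 and 5.77 in knockdown arrays. The Cyhr1 gene median differed by 0.038, and the lowest control array stood just above the highest knockdown array.

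1700007K13Rik, a gene known by its clone name, was the exception among these 15. Its probe set 4385254 read 6.46, 6.45 and 6.51 in controls and 5.12, 6.09 and 6.41 in knockdown arrays. All 3 knockdown arrays were below the controls, replicate 1 by the most and replicate 3 by little. The gene median was 7.31, 8.25 and 7.86 in controls and 8.36, 9.43 and 9.12 in knockdown arrays. Most of the index difference of -1.77 ± 0.55 (SD, n = 3 pairs) thus lay in the gene median, at 1.17, and -0.60 in the probe set itself. Across all 15, the levels of the groups did not overlap for 11 and overlapped for 4, beside 10.2% of all probe sets without overlap and with knockdown lower. A knockdown mean below the level filter was found for 11, beside 0.956% of all probe sets that could enter. These 15 were ranked on the same contrast, so both counts are descriptions.

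**Figure D2:**
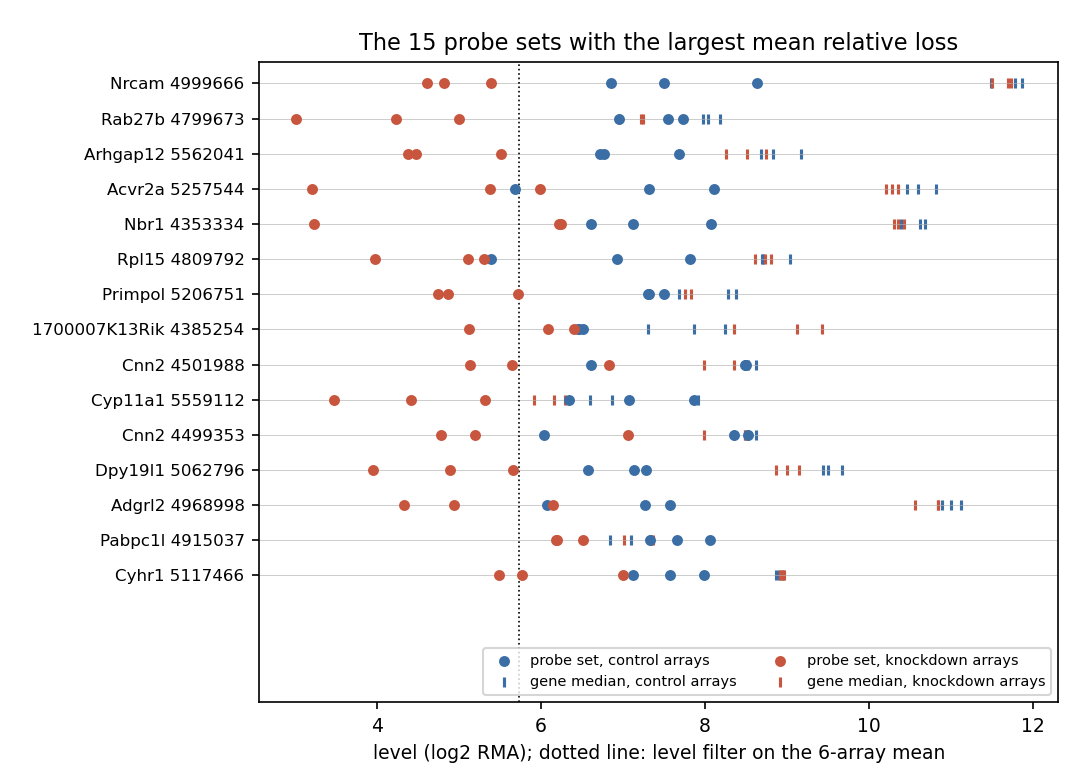
Levels (log2 RMA) of the 15 relatively lost probe sets with the most negative mean index difference on each of 3 control (blue dots) and 3 knockdown (red dots) arrays. Ticks give the gene median on each array, and the dotted line is the level filter of 5.73. The knockdown dots lie to the left of the control dots for 11 probe sets. For 1700007K13Rik, which is among these 11, the gene ticks also move right.

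The 146 probe sets divide by what moved. The probe set's own level was lower by 1 or more in 96, by 0.5 to 1 in 33 and by under 0.5 in 15, and in 2 it was not lower. The gene median stayed within 0.5 of the control in 104, was higher by 0.5 or more in 26 and lower by 0.5 or more in 16. The most frequent form, 80 of 146, paired a probe set lower by 1 or more with a gene median within 0.5. Another 17 had a gene median higher by 0.5 or more and a probe set lower by under 0.5 or not lower. In 16 the probe set was lower by 1 or more and its gene by 0.5 or more.

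Over the 146 the median own difference was -1.18, the median gene difference -0.055 and the median index difference -1.12. Over all 236922 probe sets that could enter, the median own difference was -0.0026 and the median index difference 0.0050. The mirrored rule, with the signs turned, kept 220 probe sets in 151 genes, 0.0929%. In these the median own difference was 0.46 and the median gene difference -0.76, and the gene median was lower by 0.5 or more in 153 of 220, against 16 of the 146. No test of this contrast between the 2 lists was made, since both were chosen on the index.

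**Figure D3:**
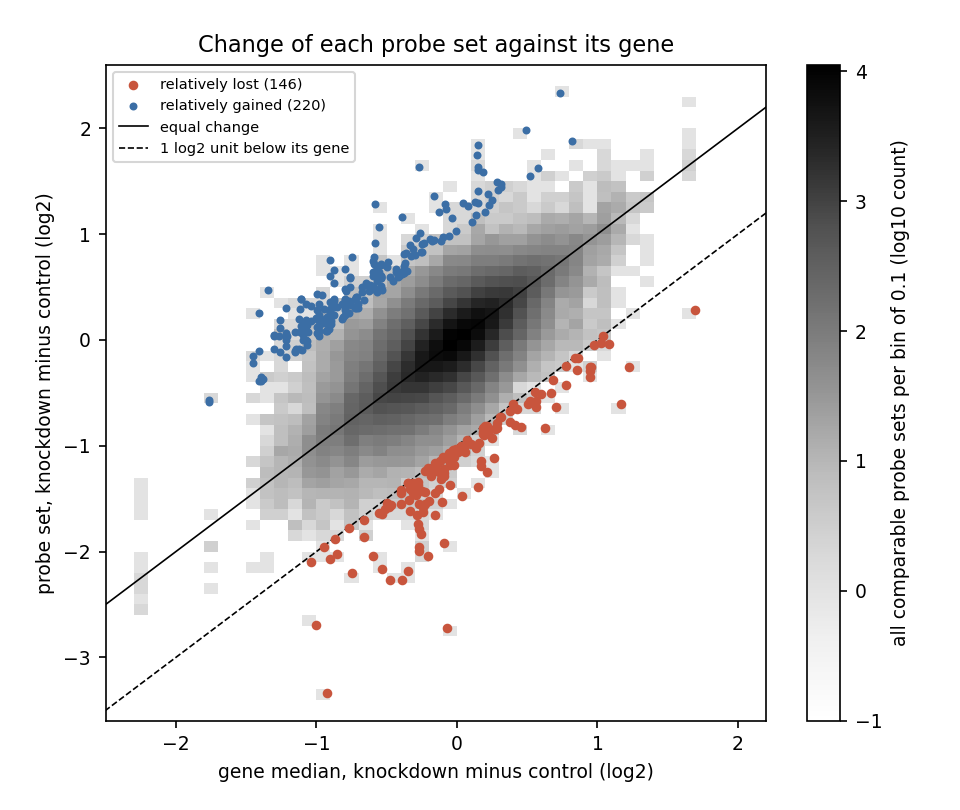
Knockdown minus control difference (log2) of each probe set against that of its gene median; grey shading gives the number of comparable probe sets per bin of 0.1 on a log10 scale, red points the 146 relatively lost probe sets and blue points the 220 of the mirrored rule. The solid line marks equal difference and the dashed line 1 log2 unit below it; red points spread from gene medians of -1.04 to 1.69, with most near 0.

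Where the gene median was higher, the probe set often kept its level. Efemp1, which encodes an extracellular matrix glycoprotein of the fibulin family, had the largest gene difference, 1.69. Its gene median was 6.95, 7.93 and 7.57 in controls and 8.30, 9.61 and 9.61 in knockdown arrays. Probe set 4896803 read 8.75, 8.65 and 9.20 in controls and 8.61, 9.45 and 9.39 in knockdown arrays, so its groups overlapped and its own difference was 0.29.

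Frzb encodes a secreted antagonist of Wnt signalling. Its gene median was 7.77, 7.83 and 8.18 in controls and 9.21, 9.10 and 9.13 in knockdown arrays, without overlap. Probe set 4667896 stayed at 5.28, 6.35 and 6.40 in controls and 5.38, 5.67 and 6.21 in knockdown arrays, with overlapping groups. Its index difference of -1.48 ± 0.43 (SD, n = 3 pairs) therefore held a gene difference of 1.22 and an own difference of -0.26.

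Mmp17 encodes a membrane-anchored matrix metalloproteinase. Probe set 4715041 read 11.60, 11.73 and 12.25 in controls and 11.74, 11.76 and 12.20 in knockdown arrays, a high and even level. The gene median was 9.40, 9.69 and 9.72 in controls and 10.40, 10.76 and 10.78 in knockdown arrays. Tceal5 probe set 4405455 showed the same form, with 10.80, 11.04 and 11.31 in controls, 10.73, 11.26 and 11.07 in knockdown arrays and a gene difference of 1.03. These were the 2 members, beside Efemp1, whose own level differed least downward, at 0.036 and -0.033. Both read above 10.35 on all 6 arrays, the upper quartile of the control means of all probe sets that could enter. The highest of those means was 14.35. No saturation measure was used here.

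Larp7 encodes an RNA-binding protein that holds the 7SK small nuclear RNA. Its probe set 4829631 read 7.04, 6.72 and 6.96 in controls and 6.42, 6.73 and 6.51 in knockdown arrays, with overlap. The gene median was 8.72, 8.37 and 8.51 in controls and 9.25, 9.63 and 9.57 in knockdown arrays. Its index difference was -1.30 ± 0.18 (SD, n = 3 pairs), with a gene difference of 0.95. Of the 133 genes, limma on the gene medians called 14 higher and 7 lower, beside 115 (0.804%) and 301 (2.1%) of all 14310 genes. With the replicate block the counts were 30 and 31, beside 7.61% and 12.4%. The gene median is part of the index, so these counts are given as a description.

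In the genes that were lower as a whole, the probe set was lower still. Strbp, which encodes a double-stranded RNA-binding protein of the spermatid, was named after its values were seen. Its gene median was 10.90, 11.10 and 10.67 in controls and 9.92, 9.97 and 9.68 in knockdown arrays. Probe set 5057994 read 7.34, 7.28 and 6.14 in controls and 5.46, 4.47 and 4.53 in knockdown arrays, without overlap. Strbp also held 2 probe sets of the mirrored list, at index differences of 1.22 and 1.36 and own differences of 0.18 and 0.32, so its probe sets differed in opposite directions from the gene median.

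Asph, Car12, Nalcn and Neb likewise held probe sets of both lists, 5 genes with Strbp. Asph encodes an aspartate hydroxylase and, from other promoters and exons, the sarcoplasmic reticulum proteins junctin and junctate. Among its 40 probe sets, 2 were relatively lost, at -1.12 and -1.07, and 1 was relatively gained, at 1.20. Nalcn, a sodium leak channel, had 1 at -1.04 and 1 at 1.19 among 53, and Car12, a membrane carbonic anhydrase, 1 at -1.17 and 1 at 1.16 among 14. Neb, the giant thin filament protein nebulin, had 1 at -1.01 and 1 at 1.02 among 128.

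A gene with several relatively lost probe sets gives more than 1 reading within the same gene. Whether these lie in the same transcript was not tested, since exon positions were not used here. There were 12 such genes with 25 of the 146 probe sets, and 1 of them, 2510009E07Rik, held 3. Levels did not overlap between the groups for 17 of the 25, beside 10.2% of all probe sets with knockdown lower. The rule asked for a drop in every pair, so nothing is read from this count. The probe sets of a gene may share transcripts and have, on each array, the same gene median, so they are not replicates of each other.

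The 3 probe sets of 2510009E07Rik, a gene known by its clone name, were also high in level. Probe set 4459657 read 10.90, 10.89 and 10.59 in controls and 9.43, 9.38 and 9.23 in knockdown arrays. Probe set 5058160 read 10.92, 11.12 and 11.00 in controls and 9.59, 10.11 and 9.67 in knockdown arrays. Probe set 4496927 read 9.24, 9.61 and 9.42 in controls and 7.86, 8.62 and 8.29 in knockdown arrays. The groups stood apart in all 3 probe sets, with index differences of -1.29, -1.06 and -1.0. The gene median of 15 probe sets was 8.34, 7.62 and 7.99 in controls and 8.06, 7.76 and 7.63 in knockdown arrays, and 7 of the 12 other probe sets had a lower mean level in knockdown arrays.

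Bcor, which encodes a corepressor of BCL6, held 2 among 30 probe sets. Probe set 4525020 read 9.18, 9.20 and 8.98 in controls and 7.85, 8.01 and 7.79 in knockdown arrays, with an index difference of -1.02 ± 0.08 (SD, n = 3 pairs). Probe set 4767056 read 7.44, 7.27 and 6.88 in controls and 5.66, 5.74 and 5.86 in knockdown arrays. Both stood clear of the controls. Both carried the older symbol 2900008C10Rik in the annotation, as did 8 of the 30 Bcor probe sets, which was read as a synonym. Against the probe sets of the older symbol alone their index differences were -0.73 and -0.93, short of the threshold of -1.

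Mxra7 held 2 among 9 probe sets, with the other 7 at -0.34 or higher. Probe set 5059232 read 7.85, 7.91 and 7.40 in controls and 6.47, 5.37 and 5.97 in knockdown arrays. Probe set 5546194 read 8.68, 8.14 and 7.52 in controls and 6.75, 6.54 and 6.43 in knockdown arrays. Neither overlapped between the groups. Slc10a4, a solute carrier of synaptic vesicles, also held 2 among 9. Its probe set 4550207 read 7.78, 7.30 and 6.55 in controls and 6.30, 4.86 and 5.24 in knockdown arrays, and 5374094 read 6.95, 7.15 and 6.71 against 5.46, 5.96 and 5.35. The levels of the groups were apart in both, and the index differences were -1.47 and -1.07. The index groups of 4550207 overlapped, with control replicate 3 at -2.24 and knockdown replicate 1 at -1.34.

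Ano2, a calcium-activated chloride channel, held 2 among 24 probe sets. Probe set 4479214 read 6.95, 7.38 and 6.87 in controls and 5.25, 5.22 and 5.13 in knockdown arrays, and 4501732 read 8.15, 8.72 and 7.95 against 6.78, 6.27 and 6.66. Both groups of arrays were well separated. The Ano2 gene median was 7.12, 7.65 and 7.53 in controls and 6.81, 6.75 and 6.77 in knockdown arrays, a difference of -0.66, and 19 of the 22 other probe sets had a lower mean level in knockdown arrays.

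H2-T23, a non-classical class I gene of the major histocompatibility complex, was compared over only 5 probe sets, of which 2 were relatively lost. Probe set 5385085 read 10.35, 10.20 and 9.71 in controls and 9.08, 8.84 and 8.22 in knockdown arrays. Probe set 4950757 read 8.53, 8.56 and 8.54 in controls and 8.01, 7.09 and 7.32 in knockdown arrays. The groups were separate in both, but class I genes are close paralogs of each other, whose transcripts the probes may read together, so both values are uncertain.

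In Cnn2, which encodes the actin-binding protein calponin 2, the 2 probe sets followed each other across the arrays. Probe set 4501988 read 8.50, 8.49 and 6.61 in controls and 6.83, 5.65 and 5.13 in knockdown arrays. Probe set 4499353 read 8.52, 8.35 and 6.04 in controls and 7.06, 5.19 and 4.77 in knockdown arrays. In both, control replicate 3 lay below knockdown replicate 1, so the groups overlapped. Whether the 2 share sequence was not tested, since probe positions and sequences were not used here.

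The remaining genes with 2 were Rif1, Akt1s1, A230006K03Rik and Cpne9, beside Asph. Rif1, which acts in DNA repair and replication timing, had probe set 5468056 at 7.61, 8.27 and 6.78 in controls and 6.05, 7.47 and 5.29 in knockdown arrays, with overlap. Probe set 4677462 of Rif1 was at 6.81, 7.16 and 5.53 against 5.74, 5.44 and 4.56, with overlap as well. Akt1s1, an inhibitor within mTOR complex 1, had probe sets 5497790 and 5513912 at own differences of -0.43 and -0.25 beside a gene difference of 0.78, so it belonged to the genes with a higher median. The index differences were -1.16 and -1.05 in A230006K03Rik and -1.0 in both of Cpne9, a copine.

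**Figure D4:**
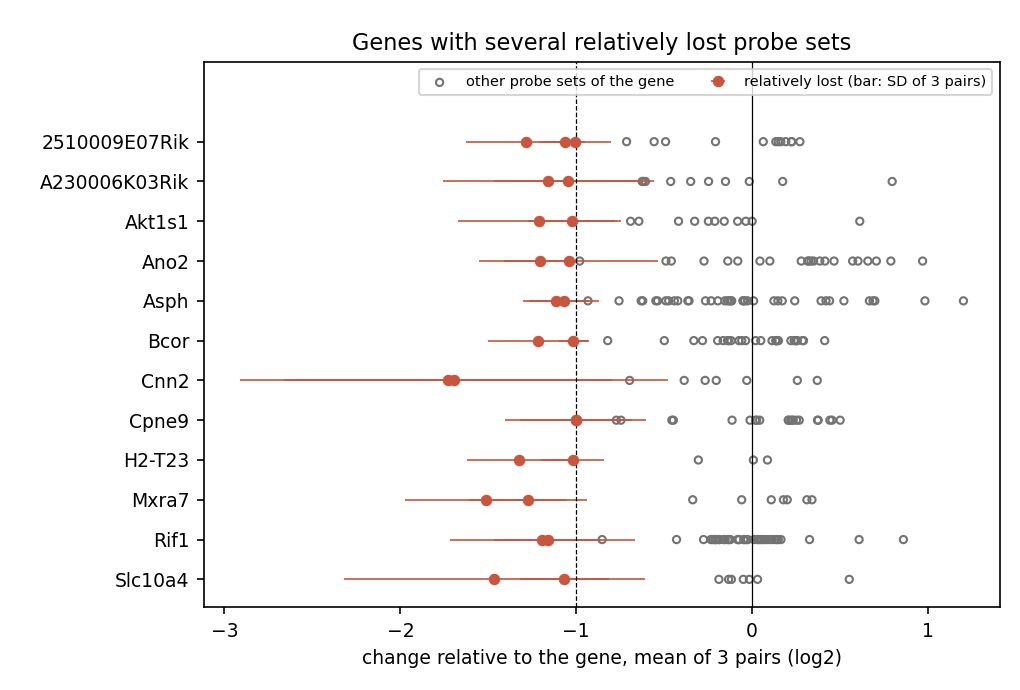
Mean index difference over 3 pairs (log2, knockdown minus control) of every compared probe set in the 12 genes with several relatively lost probe sets; red points are the relatively lost ones with the SD of the 3 pairs as bars, and open circles the rest. The dashed line is the threshold of -1, and bars are widest in Cnn2 and narrow in Asph.

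Of the 146 relatively lost probe sets 32, or 21.9%, lay in any of the 12 gene families or lists examined, beside 29.1% of all probe sets that could enter, and 114 lay in none. The lists do not cover their whole classes. Bcor, Ehmt2 and Asxl1 lay outside the chromatin list and Strbp outside the RNA-binding list. Lats1 and Mok lay outside the kinase list, and Diras2 and Syde1 outside the small GTPase list. The shares that follow therefore describe the lists. Adhesion and guidance genes held 7 of 5522 probe sets, 0.127%, beside 0.0616% of all, a difference that was not tested. Nrcam was 1 of them and Adgrl2, a latrophilin, another. Adgrl2 probe set 4968998 read 7.27, 7.57 and 6.07 in controls and 6.15, 4.94 and 4.32 in knockdown arrays, where knockdown replicate 1 lay just above control replicate 3. Its mean index difference was -1.58. Another Adgrl2 probe set averaged lower, at -1.74, but missed the threshold for single pairs.

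Dscaml1, an immunoglobulin-type adhesion molecule of synapse and dendrite patterning, had probe set 4396290 at 8.50, 8.70 and 8.55 in controls and 6.90, 7.52 and 6.92 in knockdown arrays. The controls were tight and the groups well apart, with an index difference of -1.18 ± 0.20 (SD, n = 3 pairs). Nrxn2, a presynaptic neurexin whose transcripts are known to be alternatively spliced, had probe set 5039105 at 8.34, 9.53 and 9.24 in controls and 7.76, 7.92 and 8.25 in knockdown arrays, without overlap. The pairs ran from -0.67 to -1.64, and a second Nrxn2 probe set, 4499433, averaged -1.06 but missed the rule with -0.49 in pair 1. Pcdh10, Itga1 and Cntnap5c held the other 3.

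Ion channels held 4 of 4426 probe sets, 0.0904%: the 2 of Ano2 and 1 each of Nalcn and Trpc6, a cation channel. Nalcn probe set 4904128 read 7.49, 6.98 and 6.14 in controls and 6.05, 5.71 and 4.22 in knockdown arrays, without overlap. Trpc6 probe set 5017838 read 7.65, 7.09 and 6.25 in controls and 7.02, 4.69 and 5.63 in knockdown arrays. Its groups overlapped and pair 2, at -2.18, carried most of its mean.

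Synaptic vesicle and postsynaptic genes held 1 of 3213 probe sets, 0.0311%. It was in Erc2, which encodes an active zone scaffold. Its probe set 4932067 read 9.77, 10.01 and 9.40 in controls and 8.20, 8.36 and 8.27 in knockdown arrays. The knockdown arrays lay close together and more than 1 unit below the lowest control, and the index difference was -1.14 ± 0.38 (SD, n = 3 pairs).

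The list of small GTPases and their regulators held 4 of 7090, 0.0564%, in Rab27b, Arhgap12, Dock6 and Sos1. Dock6, an exchange factor for Rac and Cdc42, had probe set 4821473 at 7.37, 7.07 and 6.08 in controls and 5.46, 5.13 and 4.98 in knockdown arrays, without overlap. Sos1, an exchange factor for Ras, had probe set 5441405 at 6.16, 7.37 and 5.86 against 5.18, 5.90 and 4.92. Its groups overlapped, with knockdown replicate 2 just above control replicate 3, yet the 3 pairs were even, at -1.08 ± 0.08 (SD, n = 3 pairs), with same-numbered arrays high or low together.

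The list of RNA-binding and splicing factors held 3 of 6607 probe sets, 0.0454%, in Pabpc1l, Larp7 and Rbm6. Pabpc1l encodes a poly(A)-binding protein best known from oocytes. Its probe set 4915037 read 8.06, 7.66 and 7.33 in controls and 6.51, 6.19 and 6.18 in knockdown arrays, without overlap, while the gene median differed by 0.15. Rbm6, a splicing-related RNA-binding protein, had probe set 4561796 at 7.27, 6.97 and 5.78 in controls and 6.61, 6.12 and 4.36 in knockdown arrays, with overlap.

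The list of kinases and phosphatases held 4 of 7903, 0.0506%: 1 each of Ptpn5 and Stk32b and the 2 of Akt1s1. Akt1s1 encodes neither a kinase nor a phosphatase and was counted because the list held its symbol. Ptpn5, the striatum-enriched tyrosine phosphatase, had probe set 4530981 at 10.44, 9.86 and 10.34 in controls and 9.62, 9.49 and 9.58 in knockdown arrays, without overlap. Its gene median was higher by 0.43, and the index difference was -1.08 ± 0.17 (SD, n = 3 pairs). Stk32b probe set 4680623 read 6.40, 7.0 and 6.29 in controls and 4.95, 5.63 and 5.66 in knockdown arrays, also without overlap.

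The remaining families held few. Zinc finger genes held 3 of 5494, 0.0546%, with Zfp51 probe set 5008428 at 8.64, 9.21 and 8.39 in controls and 6.35, 7.61 and 6.16 in knockdown arrays, without overlap. Zfp451 probe set 4374075 had an index difference of -1.06, and 5081418 of Zfhx2os, a transcript antisense to Zfhx2, one of -1.28. Zfhx2os is annotated as antisense RNA and was counted because the list held its symbol. Cytoskeleton and motor genes held 2 of 6783, 0.0295%, in the unconventional myosins Myo18b (-1.33) and Myo5b (-1.09). Solute carriers and ATPases held 2 of 7498, 0.0267%, both in Slc10a4.

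The chromatin and transcription list held 1 of 6258, 0.016%, in Hdac2, a histone deacetylase. Hdac2 probe set 5034634 read 8.75, 8.86 and 7.94 in controls and 7.28, 8.04 and 7.13 in knockdown arrays, with a slight overlap. Ubiquitin and turnover genes held 1 of 8601, 0.0116%, in Herc2, a large ubiquitin ligase. Herc2 probe set 5008733 read 7.42, 7.95 and 6.98 in controls and 6.48, 7.46 and 6.60 in knockdown arrays. Its groups overlapped, and its gene median over 114 probe sets was higher by 0.51.

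Genes reported elsewhere as CELF1 targets held 1 relatively lost probe set among 1181 in 45 genes, and it was that of Nrcam. This was 0.0847%, beside 0.0616% of all, a difference that was not tested. The mirrored rule kept 9 probe sets in the same genes. The list was chosen with earlier results of these data known. The next most negative in these genes were 4768586 of Ryr1, a muscle calcium release channel, at -0.94 ± 0.12 (SD, n = 3 pairs) and 4838478 of Mef2d, a transcription factor, at -0.89 ± 0.61. Ryr1 was even over the pairs, at -0.85, -0.90 and -1.08, but its mean fell short of -1, and in Mef2d pair 3, at -0.24, missed the line for single pairs. The most negative probe set of Mapt, which encodes the microtubule protein tau, was at -0.28, and that of App, the amyloid precursor, at -0.15.

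The relatively lost probe sets came mostly from the low part of the signal range. Their control means ran from 6.01 to 11.86 with a median of 7.38, against 8.95 for all probe sets that could enter, and 97 of 146 were under 8. The median knockdown mean was 6.13. A knockdown mean below the filter line of 5.73 was found for 49 of 146, beside 0.956% of all probe sets that could enter. For such probe sets the size of the difference may be bounded by the background, for which no detection call was used here. The mean over both groups had to pass that line.

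The share kept by the rule moved with the control level. It was 0.134% of 38908 probe sets below 7, 0.116% between 7 and 8, 0.0535% between 8 and 9, 0.0323% between 9 and 10, and 0.0164% of 72968 at 10 or above. The median SD of the 3 paired differences over all probe sets moved in the same order, from 0.36 below 7 to 0.12 at 10 or above. The part of this spread in the share was not tested. The mirrored rule kept 0.337% below 7 and 0.0178% at 10 or above.

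**Figure D5:**
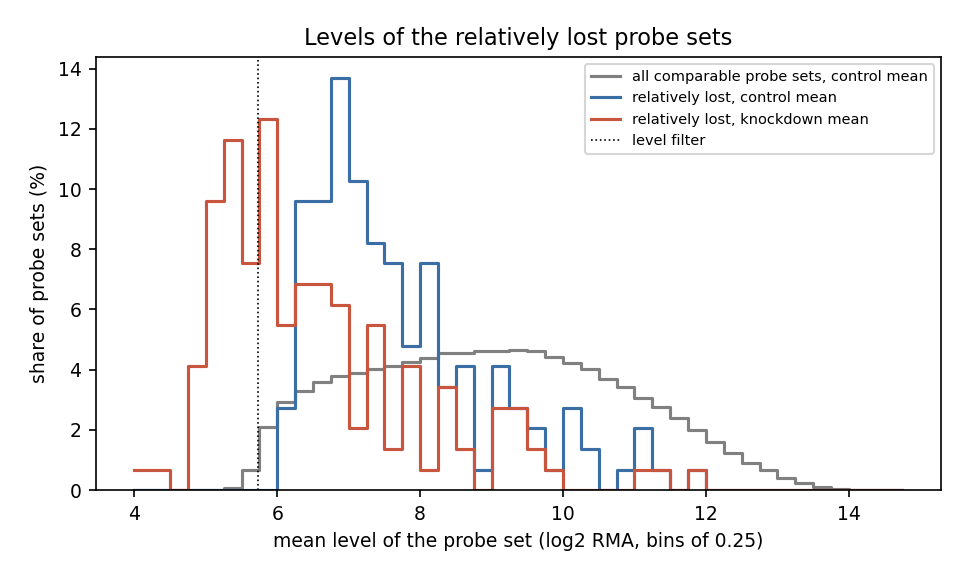
Share of probe sets (%) by mean level (log2 RMA, bins of 0.25) for all comparable probe sets in controls (grey), and for the 146 relatively lost ones in controls (blue) and in knockdown arrays (red); the dotted line is the level filter of 5.73. The medians are 8.95, 7.38 and 6.13, and 49 of the red values lie below the filter.

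Arrays differed within a group in these probe sets. The median level of the 146 was 7.56, 7.77 and 7.01 in control replicates 1, 2 and 3 and 6.43, 6.36 and 5.94 in the knockdown replicates. Replicate 3 was the lowest control array for 97 of 146, 66.4%, beside 41.2% of all probe sets that could enter and 42.3% of those with a control mean under 8. Replicate 3 was also the lowest knockdown array for 76, 52.1%, beside 36.1% of all. The median SD of the controls was 0.446 for the 146 and 0.239 for all.

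Taken without pairing, the groups of the index did not overlap, with knockdown lower, for 109 of the 146, beside 4.34% of all probe sets. The levels themselves did not overlap, with knockdown lower, for 91, beside 10.2%, and overlapped for 55. Pair 2 was the most negative for 62, pair 3 for 46 and pair 1 for 38. The SD of the 3 pairs had a median of 0.353 and ran from 0.00885 to 1.37. The most even was Tgm6, a transglutaminase named after its values were seen, whose probe set 4905021 was at -1.08, -1.09 and -1.07.

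The thresholds cut through a continuous range. Inside the mean threshold lay the 2 probe sets of Cpne9 and 1 of AU040320, all at -1.0, and outside it Herc6 at -0.999, Dnmt3b at -0.992 and Nmd3 at -0.989. Inside the threshold for single pairs lay Ano2 4501732 with a weakest pair of -0.53, and Prpsap1 and Gpr158 with -0.56. Outside it lay Ostf1 with -0.499, Nrxn2 4499433 with -0.489 and Cep72 with -0.480. The threshold for single pairs alone kept 749 probe sets, and that for the mean alone 205.

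Most relatively lost probe sets were the only one of their gene to meet the rule, but many of these genes held other probe sets with smaller relative drops. Of the 2769 other probe sets of the 133 genes, 161 had a mean index difference of -0.5 or lower, 5.81%, beside 1.88% of all, and 94 had one of 0.5 or higher, 3.39%, beside 2.02%. Protein-coding genes held 141 of the 146, 96.6%, beside 98.4% of all, and long noncoding RNA genes 4. Genes with 5 to 9 compared probe sets held 35 of 30669, 0.114%, and genes with 40 or more 17 of 34145, 0.0498%. The gene median included the relatively lost probe set itself.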

How the data were processed

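Total RNA was read on 6 mouse exon arrays, 3 per group. The table the authors deposited holds log2 RMA values, 1 for each exon probe set and array. Per the submitters' processing notes they were made in Affymetrix Expression Console, with the mm9 build named and no software version. RMA makes array distributions alike, so differences in total signal are removed. All 6 sample columns were mapped by title, with the unnumbered title of each group taken as replicate 1 by exclusion, and 0 columns were left unmapped.

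The platform annotation gave 316997 of 1195555 probe sets a single symbol and 6571 several, with 871987 unlisted. Among the 22264 symbols 17988 were current in RefSeq (GRCm38.p6, used for names only), 4213 were updated through synonyms and 63 kept as given. Older symbols were updated for 23 of the 146 probe sets. The median filter kept 597778 probe sets. Exon positions, probe sequences and detection calls were not used here.

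The rule was applied as the report states it. The limma package (version 3.58.1, R 4.3.3) was run on gene medians, on the index over all probe sets, and as diffSplice. Tests were two-sided and moderated, with Benjamini-Hochberg adjustment and a threshold of 0.05. Of these fits, only that on the index was also run on simulated data, together with the rule. Tables were made with pandas 2.3.3 and numpy 2.4.6, and plots with matplotlib 3.10.9. Deviations from group means correlated between same-numbered arrays at 0.600, 0.351 and 0.545 for the index across probe sets, so the numbers were taken to pair the arrays; the limma fits have no block, and the fit with it stands beside them.

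The rule, the members and the gene lists were chosen with earlier results of these data known. Values on every array or index differences are given for the 15 members with the most negative mean, members in genes with 2 or more, members among reported CELF1 targets and RNA-binding factors, up to 4 per family, those next to each threshold, and the 3 whose own level was least lower or whose gene median was highest. Alternatives were other gene references, filters, probe set minima, normalizations, thresholds and left-out replicates.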

Additional observations from a re-analysis of the deposited data

How the results depend on the processing

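The number of relatively lost probe sets depends on the filter, the pairs and the thresholds. It was 439 in 396 genes with no filter (116 of the 146 among them), 30 in 30 genes with a filter at the 75th percentile, 53 in 51 genes where all 9 differences between arrays had to pass, and 14 in 14 genes with thresholds of -0.7 and -1.5. Without replicates 1, 2 or 3 it was 272 to 390 in 259 to 362 genes. Group means alone, with no replicate block, gave 205. This setting only drops the threshold for single pairs, so it holds all 146 by construction. The gene mean as reference kept 105, with 79 shared, and the median of the other probe sets 177, with 131 shared. The median own difference was -1.47 with the gene mean and -1.05 with the 75th percentile, and -1.21 to -1.05 without single replicates. The median gene difference was -0.29 with the gene mean, -0.028 with the other probe sets, -0.091 with at least 10 probe sets per gene and, reversed, 0.053 with no filter. It was -0.031 to 0.12 without single replicates, reversed without replicate 1 (0.12) or 2 (0.025). diffSplice called 98 probe sets lower where limma on the index called 0. Celf1 was at -1.28 to -1.13 without single arrays, and it no longer passed without control replicate 2 (-1.20), Cugbp1 shRNA replicate 2 (-1.25) or Cugbp1 shRNA replicate 3 (-1.13). With the replicate block its adjusted p was 0.000598. Of 759 alternative values of 63 named members, 738 moved by less than the SD of the pairs, 21 moved by more and 0 reversed. The rule chose members with a drop in every pair, so values without replicate 1, 2 or 3 could not reverse. Nothing is therefore read from the count of 0. The alternative values ran from -3.01 to -0.41, so not all of them met the threshold for the mean. Reading symbols as given and adding probe sets with several symbols of 1 gene were settings chosen after seeing the data. The number of arrays limits precision.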
